A study of Homo sapiens with 32 samples.

Results

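Branched polyethylenimine (bPEI), a positively charged polymer coat, was compared with 2 other coats of silver nanoparticles in HepG2 cells after 24 h of exposure. The 8 libraries were every library of the 3 coatings at that time, out of 32 in the series, and comprised 2 of bPEI (replicates A and B), 3 of polyethylene glycol (PEG) and 3 of citrate. The PEG and citrate libraries were pooled into 1 group of 6, called the pooled group here. HepG2 is an established human liver tumour line that keeps many functions of hepatocytes and divides in culture. All 3 groups received particles at 1.2 ug/mL, and cells in medium alone (NoNP) were collected at the same times of 6, 12 and 24 h. Transcripts in cell lysates were read by TempO-Seq, in which detector oligonucleotides that meet on a target RNA are ligated, amplified and counted, so each gene is read at its probe site and not along its length. The labels do not state that the replicates were grown apart, so each p-value reflects the scatter of these libraries alone, which may be technical.

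Citrate is a small negatively charged layer, PEG a neutral hydrated polymer and bPEI an amine-rich cationic polymer that binds cell membranes and nucleic acids. Silver particles release silver ions, which bind thiols. Metal ions that displace zinc activate the transcription factor MTF1, which drives metallothionein genes and the zinc exporter SLC30A1 through metal response elements. Hepatocytes also respond to injury and cytokines by altering the secretion of plasma proteins such as fibrinogen and albumin, the acute phase response.

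The 8 libraries held 1357159 (citrate A) to 5242043 (PEG C) reads, with 3380945 and 4289326 reads in the bPEI libraries. Values are normalized reads, reads divided by 1 factor per library. Of 13133 genes, 9324 had a mean of at least 5 normalized reads over the 32 libraries and were tested, and 3809 were not. The first 2 principal components, with 19.5% and 18.9% of the variance, set apart PEG B and citrate A, the 2 shallowest libraries. The median SD of a gene on the log2 scale was 0.30 over the 2 bPEI libraries, 0.43 over PEG and 0.42 over citrate. HepG2 markers were measured in all 10 of 10 genes listed. Their summed level ran from 217256 to 269093 normalized reads in bPEI and from 160474 to 206155 in the pooled group. That sum was mostly albumin (ALB), with 180954 and 143134 in bPEI and 89911 to 120905 in the pooled group. By the test below, 4 of the 10 were called higher in bPEI (AFP, FGB, ALB and TTR) and KRT18 was called lower. Of markers of other cell types, 1 of 8 fibroblast, 2 of 8 endothelial and 4 of 10 leukocyte genes passed the level filter, and 1 of the 5 fibroblast genes in the table was at 0 in all 8 libraries. Their sums ran from 64.9 to 75.5 in bPEI against 73.4 to 184.5 in the pooled group for fibroblasts, and from 24.0 to 26.8 against 26.7 to 108.2 for endothelium. The leukocyte sum, 6704 to 7283 against 4074 to 5360, was mostly lysozyme (LYZ). The 2 NoNP libraries at 24 h stood far apart from each other, with a median SD of 0.67, and enter no test of the main comparison.

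The comparison found 171 genes, 1.83% of those tested, past an adjusted p of 0.05 (limma on log2 of the value plus 1, Benjamini-Hochberg over the 9324 genes). In bPEI 47 were higher (0.504%) and 124 were lower (1.33%). Higher and lower always refer to bPEI against the pooled group, and differences are on that log2 scale. Genes higher in bPEI included the 3 fibrinogen chains, alpha-fetoprotein, albumin, the sterol enzyme MSMO1 and the metallothionein MT1M. Genes lower in bPEI included cystatins, keratins and actin-binding proteins, glycolytic enzymes and immediate early genes. Both bPEI libraries lay beyond all 6 others in 168 of the 171 called genes, and in 1475 of the 9324 tested, 15.8%. In all, 1278 genes had an unadjusted p under 0.05. The number of calls moved with single libraries: it was 42 without bPEI B, 71 without bPEI A and 282 without PEG C. With 1 bPEI library left, the spread comes from PEG and citrate, and the lone library is assumed to vary as they do. Of 65 called genes that were followed singly, 39 lost the call without bPEI A and 47 without bPEI B, and all 65 kept their sign. Their differences had a median of 1.03 and 0.969 times the original, with ranges of 0.588 to 1.64 and 0.361 to 1.41. A fit of all 32 libraries, which takes in the wide spread of the NoNP pair, called 21 genes, 18 of them among the 171. Calls said below to end without a named library refer to leaving out 1 library, and most of them also ended in the fit of all 32.

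**Figure D1:**
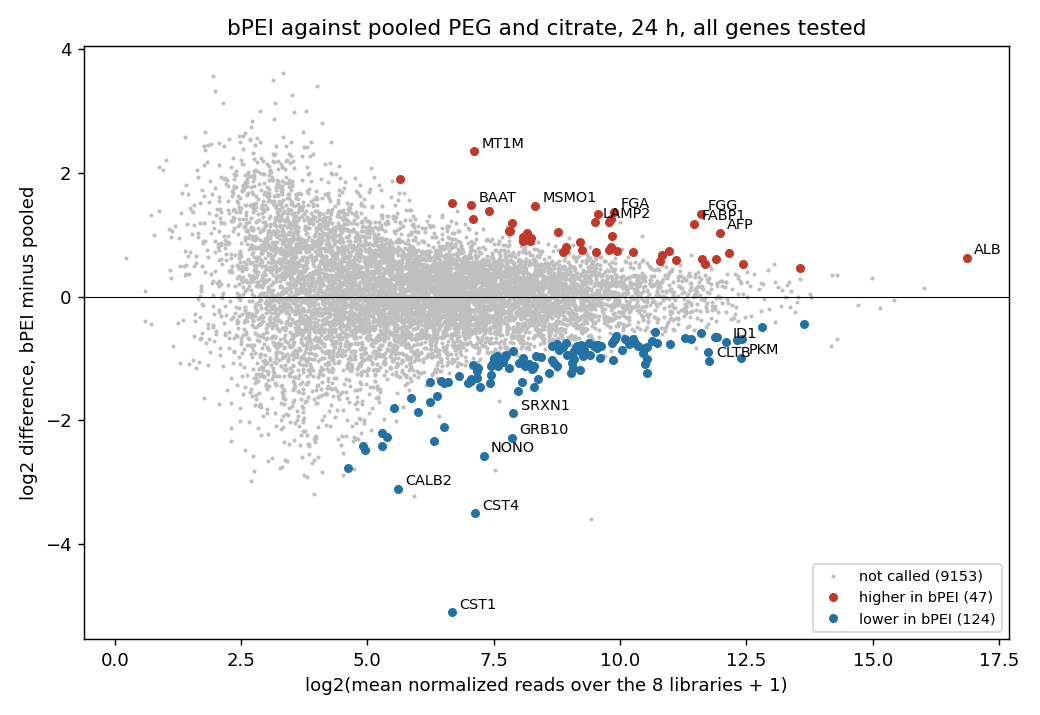
Difference between bPEI and the pooled group on the log2 scale (y) against log2 of the mean normalized reads over the 8 libraries plus 1 (x), 1 point per tested gene. Red points are the 47 genes called higher, blue the 124 called lower and grey the rest, and called genes of low level needed larger differences than abundant ones such as ALB.

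Fibrinogen, the clot-forming plasma protein built of an alpha, a beta and a gamma chain, was higher in bPEI in all 3 chains. FGA, the alpha chain, had 1445 and 2016 normalized reads in the bPEI libraries, 439.7, 700.5 and 802 in PEG and 809.7, 682 and 601 in citrate. Both bPEI libraries lay above the other 6, and the difference was 1.37 ± 0.20 (SE; limma adjusted p = 0.00024). FGB had 1789 and 1433 against 649.8, 676 and 773 in PEG and 751, 560.3 and 641 in citrate. The groups did not overlap, and FGB differed by 1.25 ± 0.18 (SE; limma adjusted p = 9.2e-05). FGG, the gamma chain, had 5725 and 5554 against 1683, 2292 and 2748 in PEG and 1919, 2410 and 2444 in citrate. The FGG difference was 1.34 ± 0.16 (SE; limma adjusted p = 1.2e-05). The 2 NoNP libraries lay below all 8 particle libraries for FGA (163.7 and 63.1), FGB (298 and 215) and FGG (911 and 946).

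The 3 fibrinogen genes lie next to each other on chromosome 4 and moved together here, so their promoters are shown, with windows from 250 bases before to 50 after the start from RefSeq (GRCh38.p14). Capitals mark matches, on either strand, to the letters GTTAAT, part of the site of the hepatocyte factor HNF1, and CTGGGAA, a site type bound by the IL-6 responsive factor STAT3. These 2 motifs do not overlap each other. FGA lies on the minus strand (chr4:154590693-154590992), FGB on the plus strand (chr4:154562730-154563029) and FGG on the minus strand (chr4:154612607-154612906).
FGA: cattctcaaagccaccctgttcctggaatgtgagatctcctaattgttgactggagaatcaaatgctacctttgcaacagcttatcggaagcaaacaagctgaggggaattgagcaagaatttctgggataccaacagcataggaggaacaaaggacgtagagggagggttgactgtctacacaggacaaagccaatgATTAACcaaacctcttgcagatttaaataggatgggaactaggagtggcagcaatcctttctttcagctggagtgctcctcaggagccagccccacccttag
FGB: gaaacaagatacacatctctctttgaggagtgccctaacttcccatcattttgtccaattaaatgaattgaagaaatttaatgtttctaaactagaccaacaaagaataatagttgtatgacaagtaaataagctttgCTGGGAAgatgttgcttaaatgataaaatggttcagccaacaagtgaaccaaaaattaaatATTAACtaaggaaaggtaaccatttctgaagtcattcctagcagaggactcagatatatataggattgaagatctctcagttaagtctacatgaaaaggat
FGG: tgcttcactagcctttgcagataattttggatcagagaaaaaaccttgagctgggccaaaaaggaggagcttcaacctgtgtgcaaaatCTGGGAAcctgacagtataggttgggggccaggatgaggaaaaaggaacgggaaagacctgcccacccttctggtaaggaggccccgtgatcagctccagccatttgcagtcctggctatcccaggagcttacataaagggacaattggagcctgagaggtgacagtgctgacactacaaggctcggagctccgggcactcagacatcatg
FGA held 1 HNF1 match, FGB 1 of each and FGG 1 of CTGGGAA. Over 35116 promoters of 300 bases, GTTAAT was in 6.88% and CTGGGAA in 10.8%. A match is a description of these letters and not a measured site.

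Of 15 tested acute phase proteins in the list, the 3 fibrinogen chains rose, against 0.504% of all genes tested, and 12 were not called. Outside the list, the serum amyloid entry SAA2-SAA4 also rose (0.75, limma adjusted p = 0.0049). It had 2849 and 2890 normalized reads in bPEI against 1548 to 2028 in the pooled group. The NoNP libraries had 2583 and 1392 of SAA2-SAA4, and its call ended in the fit of all 32 libraries (limma adjusted p = 0.155). The median difference of the 15 listed genes was 0.54, against 0.07 over all genes tested, and 13 of 15 had a positive sign against 54.5% of all genes. The protease inhibitor A2M had 10900 normalized reads in bPEI and 7575 in the pooled group on average, a difference of 0.54 (limma adjusted p = 0.056). Haptoglobin (HP, 0.58), orosomucoid (ORM1, 0.13) and SERPINA1 (0.29) were not called. Fibrinogen calls held for FGB and FGG under all 22 alternative settings, and FGA lost its call without bPEI B and in the fit of all 32 libraries (limma adjusted p = 0.304).

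Of 22 secreted hepatocyte carriers and apolipoproteins, 5 rose, against 0.504% of all genes tested, and none fell. They were ALB, AFP, TTR, APOH and APOM. AFP, the albumin relative of fetal liver and liver tumours, had 6367 and 6650 normalized reads in bPEI, 3527, 2722 and 3569 in PEG and 3436, 3175 and 2740.3 in citrate. Both bPEI libraries stood above the other 6 and lay close to each other, and AFP differed by 1.03 ± 0.14 (SE; limma adjusted p = 4.4e-05). The 2 NoNP libraries had 5690 and 1242, and the AFP call ended in the fit of all 32 libraries (limma adjusted p = 0.339). ALB, the gene with the most reads in every library, had 180954 and 143134 against 89911 to 120905 in the pooled group, a difference of 0.63 ± 0.11 (SE; limma adjusted p = 0.0049). The 2 NoNP libraries had 187249 and 99463 of ALB. ALB took 6.18% and 4.86% of the reads of the bPEI libraries and 3.21% to 4.30% in the pooled group. Transthyretin (TTR), which carries thyroid hormone, differed by 0.67. The phospholipid-binding APOH differed by 0.99 and APOM of high-density lipoprotein by 0.97. Antithrombin (SERPINC1), the inhibitor of thrombin, was the 1 gene called among 25 tested of complement and coagulation (0.88 ± 0.20 SE, limma adjusted p = 0.015). It had 799 and 974 in bPEI against 421.9 to 667.5 in the pooled group. The median of those 25 genes was 0.63, and 21 had a positive sign. ITIH2, a plasma protein that binds hyaluronan, averaged 1531 ± 12.6 in bPEI (SD, n = 2) against 666 ± 88.2 in the pooled group (SD, n = 6), with a limma adjusted p of 0.00016, and kept its call under all 22 alternatives. Calls ended for ALB without bPEI A, for SERPINC1 without either bPEI library, for APOH without either bPEI library, PEG B or citrate B, and for TTR also without citrate A. The APOM call ended in the fit of all 32 libraries (limma adjusted p = 0.122). In bulk lysates fewer cells that make a transcript and less RNA per cell cannot be told apart, here or below.

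**Figure D2:**
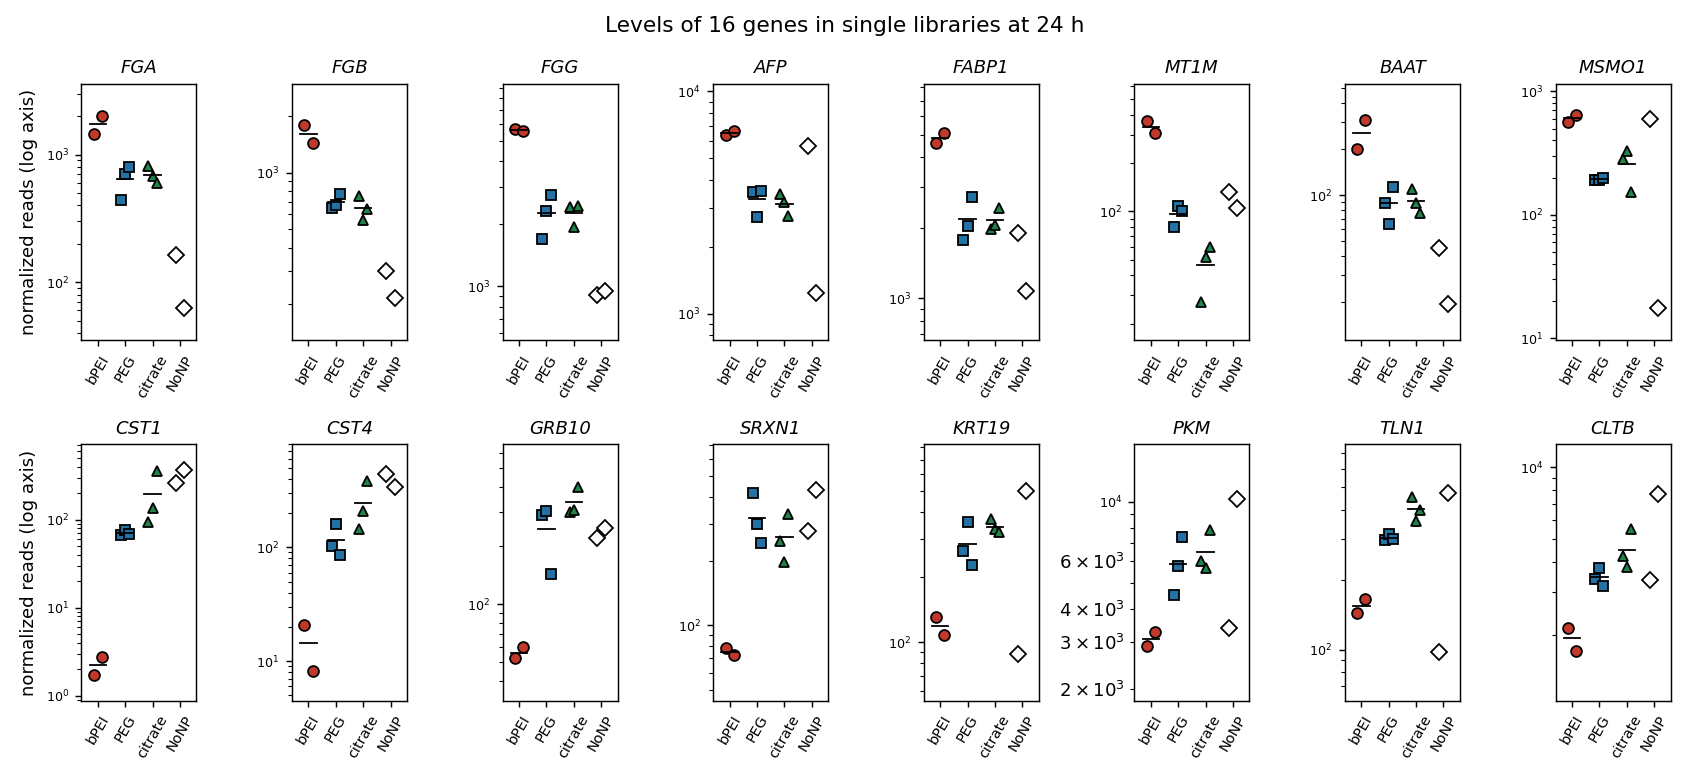
Normalized reads (log axis) of 16 genes in each 24 h library, with bPEI as red circles, PEG as blue squares, citrate as green triangles and the untreated NoNP libraries as open diamonds, and bars at group means. The upper row shows genes higher in bPEI and the lower row genes lower in bPEI. In all 16 both bPEI points lie beyond all 6 PEG and citrate points. That follows from the choice of called genes, of which 168 of 171 had no overlap. The 2 NoNP points lie far apart for several genes such as MSMO1 and KRT19.

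The sterol enzyme MSMO1, which removes methyl groups from sterol intermediates, had 565 and 643 normalized reads in bPEI, 191.7, 192 and 200.1 in PEG and 285, 329 and 152.5 in citrate. Both bPEI libraries lay above all others, and MSMO1 differed by 1.47 ± 0.25 (SE; limma adjusted p = 0.0010). Of 22 cholesterol genes tested, 2 rose, MSMO1 among them, against 0.504% of all genes tested. The other 20 were not called, and the list had a median of 0.52. CYP51A1 (0.77, limma adjusted p = 0.065) and SC5D (0.98, limma adjusted p = 0.063) missed the threshold. MSMO1 lost its call without bPEI B and in the fit of all 32 libraries (limma adjusted p = 0.614), among others.

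BAAT, which joins bile acids to glycine or taurine, had 200.01 and 312 against 64.6 to 113 in the pooled group. It was the 1 gene called among 11 of bile acid handling (1.48 ± 0.31 SE, limma adjusted p = 0.0072) and lost its call without bPEI B. FABP1, the abundant fatty acid carrier of hepatocytes, was named after its values were seen. It had 4606 and 5101 in bPEI against 1779 to 2708 in the pooled group (1.18 ± 0.15 SE, limma adjusted p = 3.7e-05). None of 17 tested genes of fatty acid synthesis and storage, 20 of fatty acid oxidation or 24 of xenobiotic metabolism was called by limma.

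Metal handling was represented by few genes. Metallothioneins are small cysteine-rich proteins that bind zinc, copper and silver. MT1M had 365 and 306 normalized reads in bPEI, 79.2, 108 and 101 in PEG and 27.1, 51.8 and 60.3 in citrate. Both bPEI libraries lay above all others, with citrate below PEG, and MT1M had the largest difference among the called genes that rose (2.35 ± 0.40 SE, limma adjusted p = 0.0012). The difference was 1.80 against PEG and 2.90 against citrate. NoNP had 131.6 and 104 normalized reads of MT1M. Metallothionein genes are near copies of each other, so reads assigned to MT1M are uncertain. The other 4 tested metallothioneins were not called: MT1F had a difference of 2.002 at a mean of 23.5 in bPEI, MT1G 0.59, MT2A 0.23 and MT1E 0.19. MT1M lost its call without a filter on low values (limma adjusted p = 0.0529), in the fit of all 32 libraries (limma adjusted p = 0.134) and without bPEI A, where the log2 difference of MT1M was 2.22.

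SLC30A1, the zinc exporter of the plasma membrane, was the 1 gene called among 22 of zinc and copper handling. It had 1701 and 1755 normalized reads in bPEI, 1032, 1144 and 945 in PEG and 1084, 1084 and 983 in citrate. The groups were tight and did not overlap. SLC30A1 differed by 0.73 ± 0.16 (SE; limma adjusted p = 0.0097), a call that ended without either bPEI library. SLC30A1 had 1662 and 1003 in the 2 NoNP libraries, which were as far apart as bPEI and the pooled group. Its promoter is shown because it is a known target of MTF1 (GRCh38.p14, chr1:211579112-211579411, minus strand, RefSeq, the same window as above). Capitals mark matches on either strand to the core of the metal response element, TGCACNC or TGCGCNC.
SLC30A1: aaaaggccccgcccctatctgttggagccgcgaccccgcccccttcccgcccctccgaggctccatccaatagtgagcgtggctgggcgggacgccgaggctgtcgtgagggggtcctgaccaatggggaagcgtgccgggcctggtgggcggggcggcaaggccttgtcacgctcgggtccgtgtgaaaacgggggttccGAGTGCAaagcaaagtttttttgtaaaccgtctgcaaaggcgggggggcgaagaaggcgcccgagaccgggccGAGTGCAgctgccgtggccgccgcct
The window held 2 matches, and 29.6% of 35116 promoters held at least 1. Of other metal genes, NCOA4 rose by 0.53 as the 1 call among 19 of iron handling (lost without either bPEI library, PEG B, citrate A or citrate B). The ferritin chain FTL had a difference of -0.39 (limma adjusted p = 0.22). The lysosomal membrane protein LAMP2 was the 1 call among 29 genes of lysosome and autophagy, with 1097 and 1418 in bPEI against 471.7 to 748.5 in the pooled group (1.21 ± 0.20 SE, limma adjusted p = 0.00063), and lost its call without bPEI B.

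Among the genes that fell, secreted cystatins had the largest differences. They are inhibitors of cysteine proteases such as cathepsins. CST1 had 1.73 and 2.75 normalized reads in bPEI, 67.7, 76.9 and 69.5 in PEG and 93.7, 137 and 355.5 in citrate. The bPEI libraries held 2 and 4 reads of CST1, against 660.0 reads in the other 6 together. The log2 difference of CST1 was -5.10 ± 0.52 (SE; limma adjusted p = 1.9e-06) with 1 added before the log and -3.99 with 5 added. CST4 had 20.8 and 8.24 in bPEI, 103, 161 and 85.04 in PEG and 146, 207 and 384 in citrate (-3.50 ± 0.45 SE, limma adjusted p = 0.00016). CST2 had 75.3 and 45.3 in bPEI against 460.3 to 2576 in the pooled group, without overlap, and its difference of -3.60 missed the threshold (limma adjusted p = 0.056).

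Citrate C was the highest of the 8 particle libraries for each of CST1, CST2 and CST4. The NoNP libraries at 24 h held 259.9 and 365 normalized reads of CST1, 438 and 337 of CST4 and 2633 and 3110.2 of CST2. CST3, the widely expressed cystatin C, was not called and had 2073 in bPEI and 1523 in the pooled group on average. The 3 lower cystatins resemble each other: of the 25-base runs of the CST1 transcript, 44.4% were also in CST4 and 11.7% in CST2, so reads may be shared between them. The probe sites were not given, so whether they fall in shared runs is not known. CST1 and CST4 lost their calls with voom weights (the highest adjusted p was 0.20 and 0.11).

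Other large falls were in genes of varied function. CALB2, the calcium-binding protein calretinin, had 10.4 and 2.75 in bPEI against 26.7 to 97.2 in the pooled group (-3.11, limma adjusted p = 0.0024). NONO, a nuclear RNA-binding protein of paraspeckles, had 32.9 and 28.8 in bPEI, 83.8, 206 and 203 in PEG and 246, 247 and 209 in citrate. NONO differed by -2.57 ± 0.34 (SE; limma adjusted p = 4.4e-05), and PEG A was the lowest of the 6 yet above both bPEI libraries. GRB10, an adaptor that dampens insulin receptor signalling, had 52.8 and 59.7 in bPEI, 289, 302 and 142 in PEG and 298, 305 and 401 in citrate. It was the 1 call among 15 genes of gluconeogenesis and insulin signalling (-2.28 ± 0.29 SE, limma adjusted p = 3.6e-05). GFPT2, an enzyme of the hexosamine pathway, averaged 25.1 ± 2.47 in bPEI (SD, n = 2) against 113 ± 24.9 in the pooled group (SD, n = 6), with a limma adjusted p of 0.00066. The GFPT2 call ended in the fit of all 32 libraries (limma adjusted p = 0.233). Calls for NONO and GRB10 held under all 22 alternatives, and that for CALB2 ended without bPEI B, with voom weights, without a filter on low values and in the fit of all 32 libraries (limma adjusted p = 0.224), among others.

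Genes of the cytoskeleton fell in 7 of 28 tested, against 1.33% of all genes tested, and none rose. These were the keratins KRT18 and KRT19, which form the intermediate filaments of epithelial cells, actin (ACTB) and the actin-binding TPM4, MYH9, FLNA and TLN1. KRT19 had 130.7 and 108 normalized reads in bPEI, 264, 362 and 229 in PEG and 370.5, 335 and 323.5 in citrate. The groups did not overlap, and KRT19 differed by -1.38 ± 0.24 (SE; limma adjusted p = 0.0011). Talin (TLN1), which links integrins to actin, had 144 and 165.5 against 296 to 456 in the pooled group (-1.17 ± 0.22 SE, limma adjusted p = 0.0033). Tropomyosin TPM4 had 3984 and 2978 against 4528 to 6193 (-0.70 ± 0.14 SE). Non-muscle myosin MYH9 differed by -1.26, filamin FLNA by -1.08, ACTB by -0.75 and KRT18 by -0.72. The median of the 28 genes was -0.31, against 0.07 over all genes tested. Their transcripts had a median GC content of 57.0%, against 48.2% over all genes tested. With the GC trend of each library removed, as described below, the list median was -0.11. KRT19, TLN1 and TPM4 alone were then called. Calls ended for KRT19, ACTB and TPM4 without bPEI B, for TLN1 without bPEI A, and for KRT18 without either bPEI library, PEG B, citrate A or citrate C.

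Glycolysis and hypoxia genes fell in 4 of 25 tested, against 1.33% of all genes tested, and none rose. PKM, the pyruvate kinase of the last step of glycolysis, had 2901 and 3267 normalized reads in bPEI, 4509, 5770.2 and 7371 in PEG and 6021, 5648 and 7829 in citrate. Every pooled library was above both bPEI libraries, and PKM differed by -0.98 ± 0.16 (SE; limma adjusted p = 0.00095). The PKM call ended in the fit of all 32 libraries (limma adjusted p = 0.230). Aldolase ALDOA differed by -0.83, the lactate exporter SLC16A3 by -0.997 and the hypoxia-inducible NDRG1 by -1.07. The list median was -0.32. With the GC trend removed it was -0.19, and PKM and NDRG1 alone were called. The NDRG1 levels were 263 and 317 in bPEI against 510.1 to 752 in the pooled group, and it lost its call without bPEI A, as did SLC16A3, while ALDOA lost it without either bPEI library.

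Immediate early genes, switched on by growth signals ahead of new protein synthesis, fell in 4 of 22 tested, against 1.33% of all genes tested, with a median of -0.67 over the list. ID1, an inhibitor of differentiation factors, had 3037 and 2767 in bPEI against 4278 to 5865 in the pooled group (-0.73 ± 0.14 SE, limma adjusted p = 0.0024). ID2 differed by -0.999, KLF6 by -1.07 and IER2 by -0.80. With the GC trend removed the list median was -0.48, and KLF6 alone was called. The ID1 call ended without bPEI B, and the ID2, KLF6 and IER2 calls ended without either bPEI library and without citrate A or citrate B, among others. FOSB, KLF10, DUSP1, FOSL1 and KLF2 had positive signs and were not called, and EGR1 had a difference of -0.35 (limma adjusted p = 0.58). The chemokine CXCL8 was the 1 call among 19 NF-kB genes and rose by 0.61. The CXCL8 call ended without either bPEI library.

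Endocytosis and vesicle sorting had 2 genes that fell among 30 tested, against 1.33% of all genes tested. Both were components of clathrin coats. CLTB, a clathrin light chain, had 2140 and 1715 in bPEI, 3404, 3805 and 3188 in PEG and 4275, 3822 and 5499 in citrate. The groups did not overlap (-1.04 ± 0.16 SE, limma adjusted p = 0.00062), and the call ended without bPEI B. Epsin EPN1, an adaptor of clathrin pits, differed by -1.38 (limma adjusted p = 0.019) and lost its call without either bPEI library. The median of the 30 genes was 0.11. Of 72 cytosolic ribosomal proteins, RPL18, RPL19, RPS3 and RPS4X fell and RPL35A rose, against 1.33% and 0.504% of all genes tested. The median was 0.17 over the list. The 4 falls lost their calls without bPEI B. Among 57 genes of the respiratory chain NDUFS6 fell (-0.69), and among 28 of the proteasome PSMC5 fell (-0.75), both calls that ended without either bPEI library or any citrate library. The share of calls in these 2 lists was near the 1.83% called among all genes tested, so the values are of the 2 genes and not of their lists. The other lists named here with 1 call likewise carry no result for the list.

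Stress pathways showed few calls. SRXN1, sulfiredoxin, which repairs oxidised peroxiredoxins and is a target of the antioxidant factor NRF2, had 77.9 and 72.8 normalized reads in bPEI, 418, 299 and 242 in PEG and 249.8, 197.5 and 332 in citrate. Both bPEI libraries lay below every other one, and SRXN1 differed by -1.89 ± 0.26 (SE; limma adjusted p = 8.8e-05). NoNP had 276 and 430.6. Another NRF2 target, the quinone reductase NQO1, was higher, at 7196 ± 728 in bPEI (SD, n = 2) against 5003 ± 598 in the pooled group (SD, n = 6), with a limma adjusted p of 0.030. Of 23 NRF2 targets tested, 1 rose (NQO1), 2 fell, SRXN1 among them, and 20 were not called, HMOX1 (-0.39) and TXNRD1 (0.04) among them. Of all genes tested, 0.504% rose and 1.33% fell. SRXN1 kept its call under all 22 alternatives, and NQO1 lost it without either bPEI library or any citrate library.

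The mitochondrial peroxidase PRDX3 was the 1 call among 22 genes of peroxide removal, with 5148 and 5074 in bPEI against 3194 to 3596 in the pooled group (0.60 ± 0.13 SE, limma adjusted p = 0.0077). Chaperones HSP90AB1 (-0.79) and HSPB8 (-0.79) fell among 19 tested, against 1.33% of all genes tested. HSPB8 was 1 of the called genes whose groups overlapped. The amino acid transporter subunit SLC3A2 (-0.66) fell among 26 genes of the integrated stress response, and the exonuclease AEN (-1.39) among 24 p53 targets. Calls for PRDX3, HSP90AB1, HSPB8, SLC3A2 and AEN ended without either bPEI library, and that for HSPB8 also without PEG A, PEG B, citrate A or citrate C. No gene was called by limma among 21 of the unfolded protein response, 28 of G1/S, 27 of G2/M, 24 interferon-inducible genes, 20 hepatocyte transcription factors, 17 of polyamine metabolism, 67 mitochondrial ribosomal proteins and 31 aminoacyl-tRNA synthetases.

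**Figure D3:**
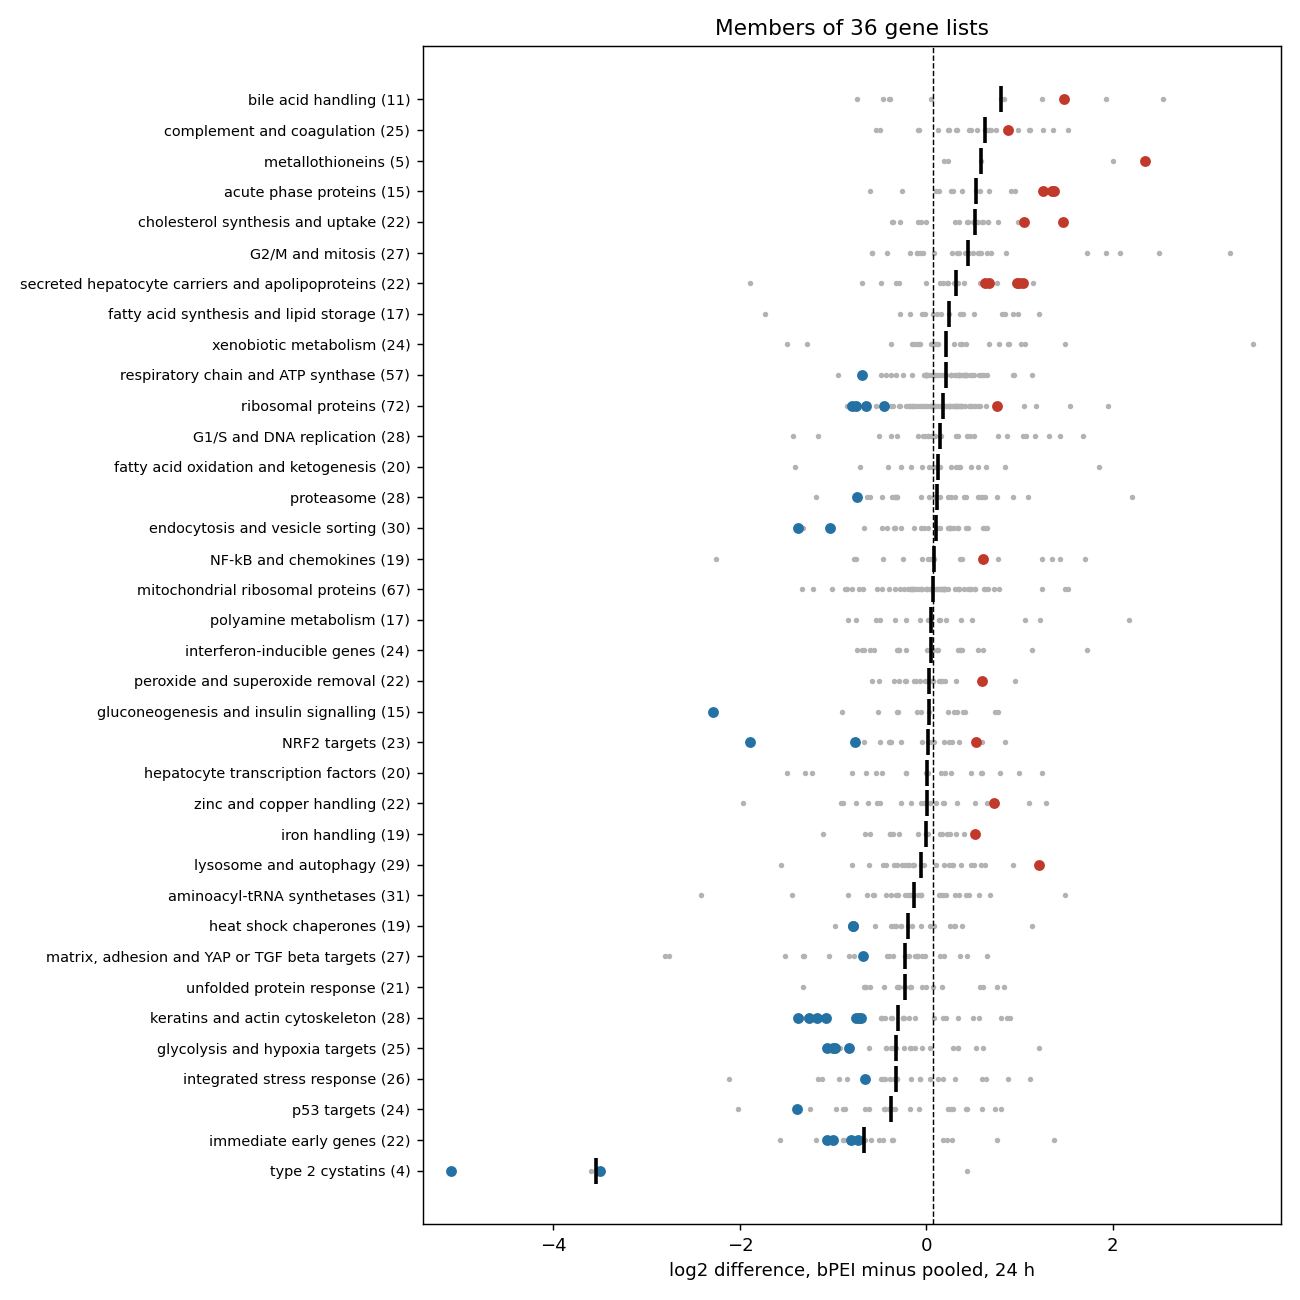
Difference between bPEI and the pooled group (log2 scale, x) for tested members of 36 gene lists (y, number of tested members in brackets), sorted by median. Grey points are genes not called, red and blue points called higher and lower, black bars are list medians and the dashed line is the median of all genes tested, 0.07. Red points gather in the lists of plasma proteins and blue points in those of cytoskeleton, glycolysis and immediate early genes, and several lists hold 1 called gene.

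Each coating was also set against bPEI alone. With PEG 52 genes were called (0.558%), 15 higher (0.161%) and 37 lower (0.397%), and with citrate 87 (0.933%), 26 higher (0.279%) and 61 lower (0.654%). These comparisons share the bPEI libraries. All 171 genes had the same sign against PEG and against citrate, which the pooled call itself favours. Without bPEI B the counts were 6 against PEG and 23 against citrate, without bPEI A 31 and 47, without PEG B 19 and 55, without PEG C 91 and 194, and without citrate A 23 and 40.0. The count against citrate was also 31 without citrate B and 40.0 without citrate C. Between PEG and citrate themselves limma called 0 genes, with 352 at an unadjusted p under 0.05, and edgeR called 0, with 281. MT1M differed by 1.10 ± 0.33 between them (SE; limma adjusted p = 0.997). The smallest p were those of GFOD1, with means of 16.9 in PEG and 69.8 in citrate, and HPGD, with 27.96 and 92.8. FGG differed by 1.34 from the pooled group and had means of 2241 in PEG and 2258 in citrate. CST1 had means of 71.4 in PEG and 195.5 in citrate.

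The same contrast at 12 h used other libraries, 3 of bPEI against 6. It called 81 genes (0.869%), 43 higher (0.461%) and 38 lower (0.408%). Of the 171 genes called at 24 h, 159 had the same sign at 12 h (93.0%, against 65.5% of all genes tested), and 22 were called at both times, 12.9% of the 24 h calls and 27.2% of the 12 h calls. Across the 171 genes the correlation of the differences was 0.72, and 0.30 across all 9324, both over genes that share libraries. The 12 h count moved with every library: it was 6 without bPEI A or B, 18 without bPEI C or PEG C, 422 without PEG A, 489 without PEG B and 26, 28 and 43 without citrate A, B and C.

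Single genes showed how the times compared. NONO differed by -2.37 at 12 h, close to its 24 h value, with 25.3 ± 4.07 (SD, n = 3) in bPEI and 141.5 ± 47.0 (SD, n = 6) in the pooled group. LAMP2 (1.36), ITIH2 (1.22), MSMO1 (1.23), AFP (0.72), ALB (0.74), SLC30A1 (0.73), GRB10 (-1.37) and TLN1 (-1.16) were called at 12 h as well. FGA (0.62), FGB (0.62) and FGG (0.64) had smaller differences at 12 h that missed the threshold (limma adjusted p = 0.084, 0.059 and 0.055). MT1M had 41.3 ± 8.62 (SD, n = 3) in bPEI and 11.5 ± 7.34 (SD, n = 6) in the pooled group, a difference of 2.20 that was not called (limma adjusted p = 0.13).

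The change of the difference between the times was tested directly and limma called 0 genes, with 454 at an unadjusted p under 0.05; edgeR called 0, with 518. CST1 had the smallest p. At 12 h CST1 had 1.58 ± 0.26 (SD, n = 3) normalized reads in bPEI and 3.09 ± 2.44 (SD, n = 6) in the pooled group. Its difference changed by -4.71 (limma adjusted p = 0.55).

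**Figure D4:**
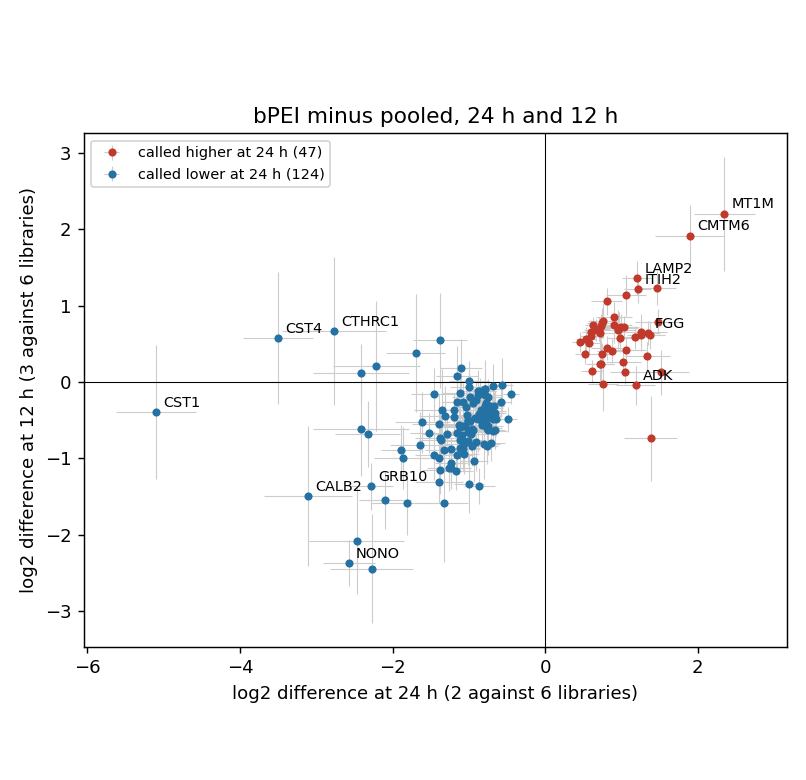
Difference between bPEI and the pooled group at 12 h (y) against 24 h (x), both on the log2 scale, for the 171 genes called at 24 h, with bars of 1 SE. Red and blue points are genes called higher and lower at 24 h. Most points lie in the quadrants of equal sign, and CST1 and CST4, at -0.39 and 0.58 at 12 h, lie far from the diagonal.

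The untreated libraries at 12 h gave a reference with 3 replicates. For genes called higher at 24 h, the median 12 h difference from NoNP was 0.03 in bPEI and -0.51 in the pooled group. For genes called lower it was -0.02 in bPEI and 0.53 in the pooled group. The bPEI mean was nearer to NoNP than the pooled mean was in 130 of the 171 genes (76.0%), against 63.7% of all genes tested. The talin gene TLN1 had 76.7 ± 16.5 in NoNP, 86.2 ± 14.6 in bPEI (both SD, n = 3) and 201 ± 63.6 (SD, n = 6) in the pooled group. KRT19 had 26.3 ± 6.199 in NoNP, 33.3 ± 9.29 in bPEI and 76.7 ± 26.6 in the pooled group. LAMP2 had 2899 ± 605 in NoNP, 2281 ± 196 in bPEI and 928 ± 334 in the pooled group. MSMO1 had 1052 ± 211, 1051 ± 193 and 461 ± 156. MT1M and NONO did not follow: MT1M had 12.3 ± 4.68 in NoNP, near the pooled 11.5 and below the bPEI value, and NONO had 161 ± 38.3, near the pooled value of 141.5.

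Called genes differed in base composition, taken over the whole transcript because the probe sites were not given. The median GC content of the transcript was 41.8% for genes higher in bPEI, 58.0% for genes lower and 48.2% for all 9276 tested genes with a matched transcript. Across these genes GC content correlated with the difference at -0.33 at 24 h, and at -0.28 at 12 h, over genes that share libraries. The 2 NoNP libraries at 24 h were split along the same genes without any particle: NoNP A was above NoNP B for 46 of the 47 higher genes and below it for 112 of the 124 lower genes, against 49.0% and 48.6% of all genes tested. GC content correlated with the NoNP A minus NoNP B difference at -0.33.

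After a GC trend was removed from each library, 110 genes were called, 39 higher and 71 lower, 1.19% of 9276. Of the 171 genes, 71 were among them, all 171 kept their sign, and the median size of the difference was 0.80 of the original. The genes called in both fits included FGA (1.19), FGB (1.03), FGG (1.13), AFP (0.77), FABP1 (1.10), MSMO1 (1.20), BAAT (1.25), LAMP2 (0.93) and MT1M (2.68). They also included CST1 (-4.85), CST4 (-3.25), GRB10 (-2.23), NONO (-2.56), SRXN1 (-1.75), KRT19 (-1.06), TLN1 (-0.94), PKM (-0.73) and CLTB (-0.70). Calls ended for ALB (0.40, limma adjusted p = 0.23), SLC30A1 (0.45, limma adjusted p = 0.18), TTR (0.60), APOH (0.80), NQO1 (0.43), PRDX3 (0.37), CXCL8 (0.30), NCOA4 (0.34) and RPL35A (0.60). Among lower genes they ended for KRT18 (-0.50), ACTB (-0.56), MYH9 (-1.002), FLNA (-0.75), ALDOA (-0.53), SLC16A3 (-0.67), ID1 (-0.48), ID2 (-0.86) and IER2 (-0.49). They also ended for SLC3A2 (-0.43), HSPB8 (-0.64), NDUFS6 (-0.54), PSMC5 (-0.65), RPL18 (-0.54) and RPL19 (-0.42). The limma adjusted p of these genes ran from 0.069 for ACTB to 0.45 for CXCL8, and the differences kept their sign. The part of GC content, or of what separated NoNP A from NoNP B, in the calls was not tested further.

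**Figure D5:**
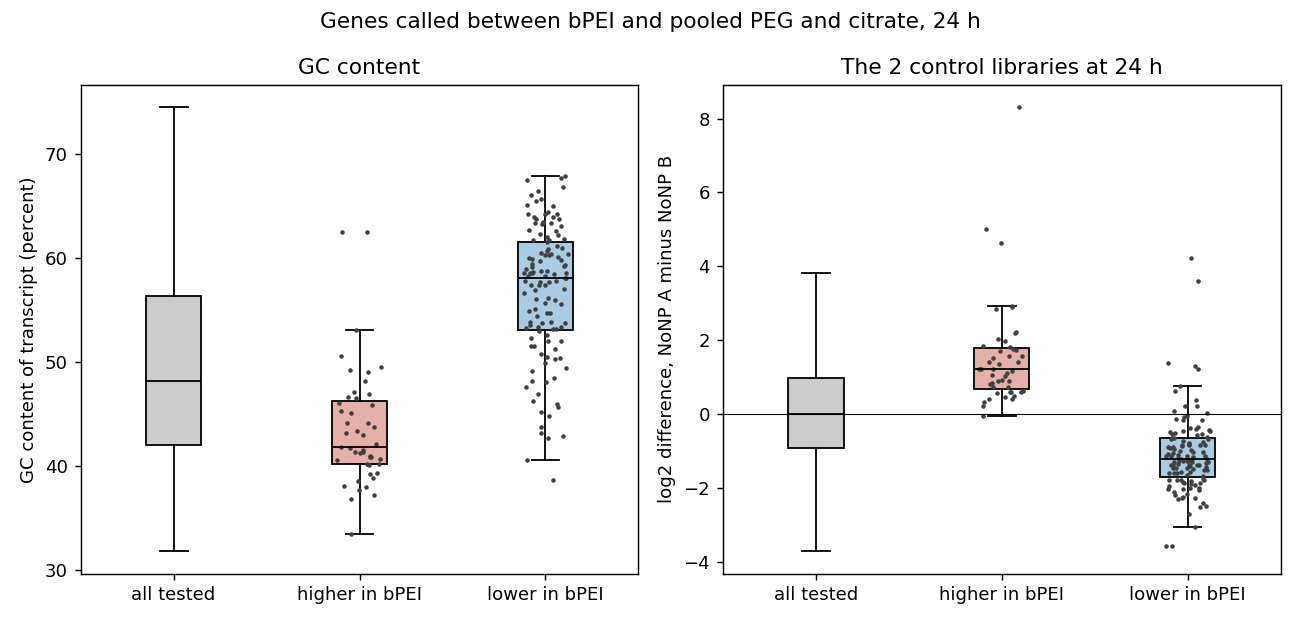
Left, GC content of the transcript in percent for all tested genes and for genes called higher and lower in bPEI. Right, the difference between the 2 untreated 24 h libraries, NoNP A minus NoNP B, on the log2 scale for the same sets. Boxes span the quartiles with the median as a line, whiskers reach the farthest value within 1.5 box lengths and points are single called genes. Genes higher in bPEI sit at lower GC content and above 0 on the right, and genes lower in bPEI sit at higher GC content and mostly below 0.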

How the data were processed

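The unit was signal: the values the authors deposited were normalized signal per gene symbol in 32 libraries, and all of them (100%, tolerance 0.01 reads) were whole reads divided by 1 factor per library that equalled median-of-ratios size factors. TempO-Seq was used per the labels' protocols. As to aligner, probe annotation and genome build: not given in the sources used here.

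Libraries at 24 h (2 bPEI, 3 PEG, 3 citrate) were fitted with limma 3.58.1 (R 4.3.3) on log2 of the value plus 1 (trended, robust empirical Bayes; residual df 6, median prior df 22.2). The main contrast was bPEI minus the mean of the 6 pooled libraries. The recovered reads allowed edgeR 4.0.16 quasi-likelihood tests as an alternative (common biological coefficient of variation 0.34). On simulated data for this design, 2 libraries against 6 over 9324 genes, 28% of 2-fold and 63% of 4-fold changes were found by limma with 1 false call among 9124 genes left unaltered. The edgeR figures were 32%, 66% and 4. The simulated counts were drawn independently for each gene and held no GC trend, so false calls from such a trend are not covered. The precision is limited by depth: a count of 0 in 1 of the 8 libraries allows up to 1.67 to 6.24 normalized reads (3 reads, counting error only).

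The members and the 40 gene lists were chosen with earlier results of these data known. Genes named are the 12 largest rises and 12 largest falls among called genes whose groups do not overlap. These needed a mean of at least 20 in the higher group. Up to 4 members with the smallest p per list were also named. So were the 5 genes with the smallest p in the test between times and in that between PEG and citrate. FABP1, SAA2-SAA4 and any further list member were named after their values were seen. GC content came from transcripts matched by symbol (12802) or an older symbol (244). GC trends were removed per library with lowess (span 0.3). Alternatives covered the added value, the filter, scaling, the fit, leaving out each library, and, chosen after seeing the data, GC removal, thinned reads and leaving out PEG B and citrate A together. Results for some genes are not reported here.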

Additional observations from a re-analysis of the deposited data

Results flagged for a closer look

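Among 172 named genes, 10 had 1 library of the 6 pooled ones far from the other 5 (by Dixon's ratio of gap to range at its critical value), and chance alone marks about 1 in 20 such groups. In PEG A, NONO had 83.8 normalized reads against 203 to 247 in the other 5, LAMP2 748.5 against 472 to 556, and HSPA6 3.44 against 0 in all others. In PEG C, GRB10 had 142 against 289 to 401, TPM4 4528 against 5521 to 6193 and SERPINC1 667.5 against 422 to 499. In citrate A, MRPL41 had 1438 against 1062 to 1178 and CST3 1667 against 1468 to 1534. In citrate C, PSMA2 had 45.5 against 108 to 175 and CST2 2576 against 460.3 to 664. For each of these genes that was called, the 2 bPEI libraries still lay beyond the library that stood apart. The cause was not tested.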

How the results depend on the processing

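The main count of 171 calls was 64 without a filter on low values, 258 with the replicate letter as a block, 308 with voom weights (158 higher, 150.0 lower), 21 with all 32 libraries in 1 fit, 78 without PEG B and citrate A together and 110 with the GC trend removed. Leaving out 1 library gave 42 to 282. The count was 208 by edgeR (84 higher, 124 lower), 217 with equal library totals, 194 with quantile normalization and 122 with 3 group means. With 30 libraries, which left out bPEI B at 6 h and NoNP B at 24 h, it was 248 (125 higher, 123 lower). It was 208 with 5 added, 205 with a mean of at least 20 and 187 with thinned reads. Whether shared letters mark paired samples is not stated and was not settled here. Same-letter libraries correlated at -0.05 to 0.10 in their deviations from the group mean. Between PEG and citrate, same-letter pairs had 0.023 to 0.096 and other-letter pairs -0.052 to 0.021. With 2 bPEI libraries the deviations mirror each other, so pairs with bPEI say little. Against PEG, 52 calls became 0 without a filter, 110 with the replicate block and 18 with the GC trend removed (6 to 91 leaving out 1 library). Against citrate, 87 became 17 without a filter, 217 with the replicate block and 139 with equal totals (23 to 194). PEG against citrate gave 0 throughout, the replicate block included, and the range leaving out 1 library was 0 to 0. At 12 h, 81 became 51 without a filter and 44 with the replicate block (6 to 489), and 102 with equal totals (28 higher, 74 lower). The test between times gave 2 with 5 added and 0 otherwise. The cause was not tested. Of 3770 values for named genes, 3283 (87.1%) stayed on the same side of the threshold, 366 lost and 121 gained a call. None changed sign where either fit called the gene, and sign changes of genes called in neither fit were not counted. Of 879 list medians 41 moved by more than the spread.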
